A study of Mus musculus with 6 samples.

Results

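The 10 genes described here encode the killing machinery of cytotoxic lymphocytes. They are perforin (Prf1), the granule protein Nkg7, and the granzymes Gzma, Gzmb, Gzmc, Gzmd, Gzme, Gzmf, Gzmg and Gzmk, taken by symbol from the 32110 genes of each library. The symbols were chosen from earlier results of the same comparison of ablated with untreated tumors, so that comparison is given for them as a description, with no test. All 10 passed the filter on low values that was used for the other genes, an average across the 6 libraries of 0.5 FPKM or more, but Gzmf and Gzmg passed it only through the ablated tumors. Gzmm and Gzmn, the other granzyme genes of the mouse, are given beside them, and neither passed that filter. FPKM scales the sequenced fragments of a gene by the length of its transcript and by the depth of the library, so levels of different genes within a library can be set side by side per length.

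Cytotoxic T cells and natural killer (NK) cells store granzymes, a family of serine proteases, in secretory granules together with perforin. On contact with a target cell the granules are released, perforin opens the membrane, and the granzymes enter the cytosol, where they cleave proteins that start cell death. In the mouse the gene for granzyme B lies in a cluster with a series of rodent relatives (granzymes C to G), whereas granzymes A and K are encoded next to each other elsewhere in the genome.

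RNA-seq was performed on implanted CT26 tumors, which grow from a colon carcinoma cell line of BALB/c origin. CT26 cells had been placed into the skin of the right flank of male wild-type Balb/c mice. In the iRFA group (incomplete radiofrequency ablation), an electrode held the middle of the tumor at a target of 70 °C so that only part of it became necrotic, and the residual tumor was taken 3 days later. The untreated group carried the same tumors without treatment, and each group held 3 libraries. The samples were whole tumor tissue with every cell type in it, and in such bulk tissue fewer cells of a type and less RNA per cell cannot be told apart. The labels do not say that the 3 libraries of a group came from separate mice, and if they did not, the SDs and p-values cover only technical spread.

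One library did not resemble its group. The library labelled untreated 3 correlated with the iRFA libraries at 0.983 to 0.987 (Pearson r of log2(FPKM + 1) over the genes tested) and with untreated 1 and 2 at 0.801 to 0.807, while untreated 1 and 2 correlated with each other at 0.983. Untreated 1 and 2 also held high levels of tissue genes, such as the epithelial keratin Krt19 at 257 and 239 FPKM, which was listed at 0 in untreated 3 and at no more than 0.155 in the iRFA libraries. The differences between the groups are therefore given with all 6 libraries, without untreated 3, and against untreated 3 alone, and the marker lists with the value of each library or its range. Untreated 3 is left out for its likeness to the iRFA libraries, so p-values without it describe these libraries and are no valid test of ablation. The files hold no counts, but for genes with a single annotated transcript the low FPKM values moved in steps, and 99.3% to 99.5% of them lay within 0.02 fragments of a multiple of 0.25 fragments. The steps gave a depth of 17558057 to 19307807 fragments a library.

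The granzyme cluster is on mouse chromosome 14 (GRCm38, GENCODE M21), and all of its genes are read from the minus strand. Gzmb (ENSMUSG00000015437) spans 56258838 to 56262260. Gzmc (ENSMUSG00000079186, 56231441 to 56234656) starts 27.6 kb from the start of Gzmb. Gzmf (ENSMUSG00000015441, 56205263 to 56211417) follows at 50.8 kb, Gzmn at 87.7 kb and Gzmg (ENSMUSG00000040284, 56156582 to 56159579) at 103 kb. Gzmd (ENSMUSG00000059256, 56129556 to 56132608) and Gzme (ENSMUSG00000022156, 56117626 to 56120625) lie farthest away, at 130 and 142 kb. Gzma (ENSMUSG00000023132) and Gzmk (ENSMUSG00000042385) are on chromosome 13, Prf1 (ENSMUSG00000037202) and Gzmm on chromosome 10, and Nkg7 (ENSMUSG00000004612) on chromosome 7.

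The genes of the cluster are close copies, which bears on how far their levels can be separated. The proteins predicted from the longest reading frames of Gzmd and Gzme were identical at 91.1% of aligned residues, those of Gzme and Gzmg at 82.3%, and those of Gzmf and Gzmg at 80.2%. Granzyme B and granzyme C, each other's closest relatives, were identical at 66.4%. At the RNA level the copies differed more often: of all stretches of 75 bases along the transcript, 5.73% for Gzmd, 4.75% for Gzme and 6.83% for Gzmg occurred unchanged in a transcript of another gene, always another granzyme of the cluster. Gzma, Gzmb, Gzmc, Gzmf, Gzmk, Prf1 and Nkg7 shared no such stretch. The levels of Gzmd, Gzme and Gzmg may therefore hold a small number of fragments from one another.

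The DNA just upstream of the start differs little among granzymes C to G, although the 5 genes differed in level after ablation. The stretches below were read from the RefSeq promoter table (GRCm38.p6), which holds each of the 12 granzyme, perforin and Nkg7 genes, and are written 5′ to 3′ on the minus strand, with an 8-base element in capitals. In Gzmc, Gzmf and Gzmg the element is TGACGTCA, the palindromic cAMP response element that CREB and ATF proteins can bind. It begins 57 bases upstream of the start in Gzmc (chr14:56234677-56234744), 82 in Gzmf (chr14:56211452-56211519), 77 in Gzmg (chr14:56159619-56159686), 61 in Gzmd (chr14:56132617-56132684) and 62 in Gzme (chr14:56120650-56120717).
Gzmc: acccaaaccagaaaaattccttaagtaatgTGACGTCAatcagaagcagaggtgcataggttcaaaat
Gzmf: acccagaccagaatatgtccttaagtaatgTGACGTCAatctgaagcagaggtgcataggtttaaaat
Gzmg: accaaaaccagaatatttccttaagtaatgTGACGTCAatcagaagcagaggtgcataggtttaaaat
Gzmd: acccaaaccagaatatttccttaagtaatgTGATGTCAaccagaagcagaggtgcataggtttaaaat
Gzme: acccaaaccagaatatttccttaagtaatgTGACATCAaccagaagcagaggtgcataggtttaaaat

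Over these 68 bases, 62 to 64 bases of Gzmd, Gzme, Gzmf and Gzmg were identical to Gzmc. Counted from 1 at the 5′ end of the element, Gzmd carried C4T and Gzme carried G5A. Of 32851 RefSeq promoter windows of 300 bases, 1.79% held TGACGTCA, which reads the same on both strands. Among granzymes C to G, the 3 genes with the intact element were those whose groups did not overlap, and the 2 with a changed element were those whose groups did. Gzma, Gzmb and Prf1 were also without overlap, and their windows held no TGACGTCA. The element was picked after these levels had been seen, a match of letters is not a bound site, and nothing is read from the pattern. All 5 promoters also held the RUNX motif AACCACA, searched on both strands and found in 5.27% of all windows, at 175 to 196 bases upstream.

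The Gzmb promoter is built differently, and is shown because its nearest 68 bases hold 2 motifs of factors known to act in activated T cells (chr14:56262335-56262402, minus strand). The capitals mark the AP-1 motif TGANTCA, which begins 58 bases upstream of the start, and the RUNX motif in the other orientation, which begins 34 bases upstream.
Gzmb: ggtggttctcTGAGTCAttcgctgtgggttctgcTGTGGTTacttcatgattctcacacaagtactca
The AP-1 motif, which also reads the same on both strands, occurred in 7.81% of all windows and in none of those of Gzmc, Gzmd, Gzme, Gzmf and Gzmg. Of the genes outside the cluster, the Gzma window held 1 RUNX motif and those of Gzmk, Prf1 and Nkg7 held none of the 3 motifs.

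The granzymes together were about 3 times as abundant in the ablated tumors. The FPKM of all 10 granzyme genes summed to 21.1, 23.9 and 26.5 in untreated 1 to 3 and to 77.1, 77.2 and 71.9 in iRFA 1 to 3, which gives 23.8 ± 2.70 against 75.4 ± 3.02 (SD, n = 3) and a ratio of 3.17. Untreated 3 lay with its own group in this sum. Of the 10 chosen genes, 6 had all 3 iRFA libraries above all 3 untreated libraries (Gzma, Gzmb, Gzmc, Gzmf, Gzmg and Prf1) and 0 had all 3 below. Of all 15560 genes tested, 11.4% were separated in the first way and 10.5% in the second, and since the genes were chosen on this contrast, nothing is read from the difference. The median difference of the 10 genes in mean log2(FPKM + 1), iRFA minus untreated, was 0.90, against 0.02 for all genes tested. It was 0.87 without untreated 3 and 1.06 against untreated 3 alone. Since the genes were chosen on this contrast, and Gzmf and Gzmg passed the filter only through the ablated tumors, nothing is read from these medians.

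**Figure D1:**
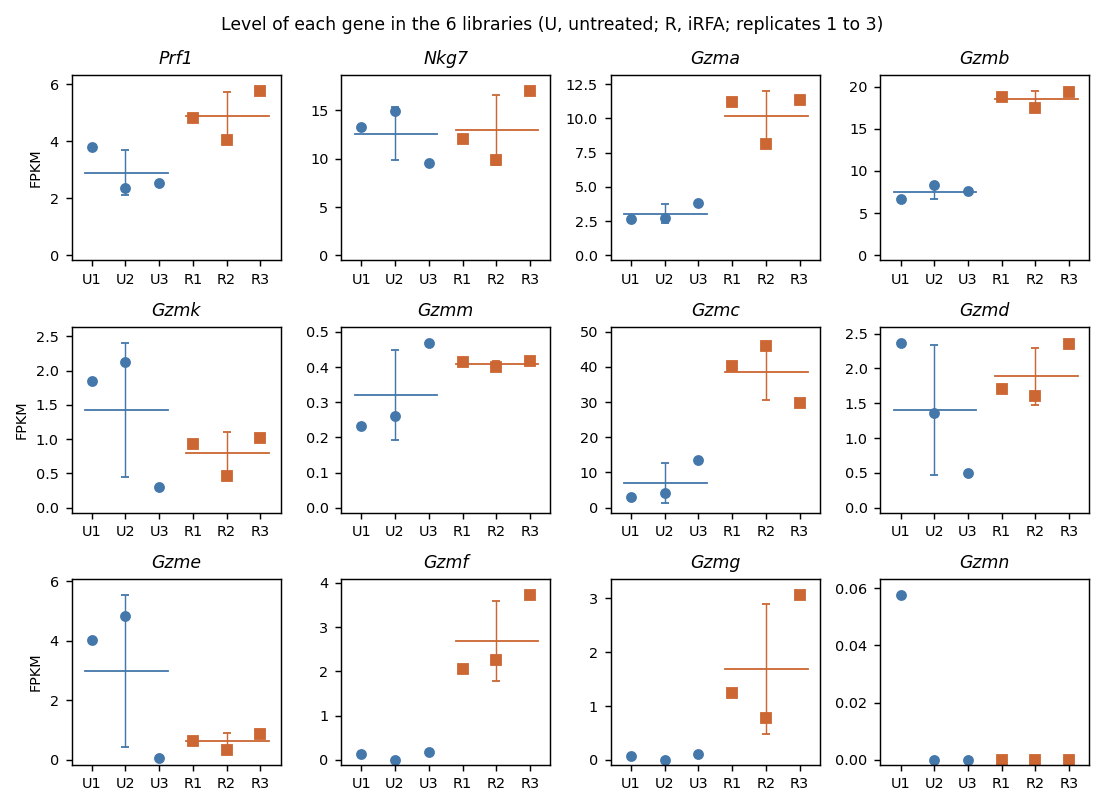
Level of perforin, Nkg7 and the 10 granzymes in FPKM (linear axis, 1 panel per gene) in each untreated (U, blue circles) and iRFA (R, orange squares) library, with the group mean as a horizontal line and the SD as a vertical bar, left out where a library is listed at 0. The iRFA squares of Gzma, Gzmb, Gzmc, Gzmf, Gzmg and Prf1 sit above every untreated circle, and the untreated circles of Gzmd, Gzme and Gzmk lie far apart from each other.

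Perforin (Prf1), which forms the pore through which granzymes reach the target cell, was moderately higher after ablation. It stood at 3.79, 2.37 and 2.53 FPKM in untreated 1 to 3 and at 4.82, 4.05 and 5.76 FPKM in iRFA 1 to 3. The groups did not overlap, but the highest untreated library (3.79) came close to the lowest iRFA library (4.05). The means were 2.90 ± 0.777 and 4.88 ± 0.856 FPKM (SD, n = 3), a ratio of 1.68. The difference in mean log2(FPKM + 1) was 0.60 (SE 0.19), with 0.54 without untreated 3 and 0.72 against untreated 3 alone.

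Nkg7, a granule membrane protein of NK cells and T cells that takes part in degranulation, showed no such separation. Its levels were 13.3, 14.9 and 9.56 FPKM in untreated 1 to 3 and 12, 9.92 and 17.0 FPKM in iRFA 1 to 3. Each group held both low and high libraries, so the groups overlapped almost completely. The difference in mean log2(FPKM + 1) was 0.03 (SE 0.24), and it was -0.14 without untreated 3 and 0.37 against untreated 3 alone. It also fell below 0 when every library was rescaled to the same sum and when iRFA 3 was left out. Nkg7 was the most abundant of the 10 genes in untreated 1 and 2, and Gzmc was the most abundant in the other 4 libraries.

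Granzyme A (Gzma), a protease that cuts after lysine and arginine, was at 2.63, 2.70 and 3.85 FPKM in untreated 1 to 3 and at 11.2, 8.12 and 11.3 FPKM in iRFA 1 to 3. Every iRFA library held more than every untreated one, with untreated 3 the highest of the untreated. The means of 3.06 ± 0.682 and 10.2 ± 1.80 FPKM (SD, n = 3) gave a ratio of 3.34. On the log2(FPKM + 1) scale the difference was 1.46 (SE 0.18), and it was 1.60 without untreated 3 and 1.20 against untreated 3 alone.

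Granzyme B (Gzmb), which cuts after aspartate and activates caspases and Bid, had the least spread within the groups of the 10 genes on the log2(FPKM + 1) scale. The untreated libraries held 6.63, 8.36 and 7.59 FPKM and the iRFA libraries 18.8, 17.4 and 19.3 FPKM. The 3 untreated libraries, untreated 3 among them, lay close together and well below the iRFA libraries. The ratio of the means was 2.46 over all libraries, 2.47 against untreated 1 and 2, and 2.44 against untreated 3. The difference in mean log2(FPKM + 1) was 1.20 (SE 0.11), and over the 14 alternatives tried it stayed between 1.12 and 1.29.

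Granzyme C (Gzmc), the neighbour of Gzmb and a protease able to kill target cells in the mouse, had the highest mean level of the 10 in the ablated tumors. Its levels were 3.11, 4.25 and 13.4 FPKM in untreated 1 to 3 and 40.2, 45.8 and 29.8 FPKM in iRFA 1 to 3. The groups did not overlap, but untreated 3 stood between untreated 1 and 2 and the iRFA libraries. In fragments this was 48.8, 66.7 and 227 against 694, 782 and 511. The difference in mean log2(FPKM + 1) was 2.53 (SE 0.49). Its size turned on which untreated library was used: 3.07 without untreated 3, where the iRFA mean was 10.5 times that of untreated 1 and 2, and 1.43 against untreated 3 alone, where it was 2.87 times. The difference was larger than that of the other 9 genes with all 6 libraries, but below that of Gzmf against untreated 3 alone and with libraries rescaled to equal sums, and below those of Gzmf and Gzmg with a pseudocount of 0.1 FPKM.

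Gzmf and Gzmg, relatives of granzyme C whose targets are less well known, were close to the limit of detection in the untreated tumors. Gzmf was at 0.124, 0 and 0.173 FPKM in untreated 1 to 3, which is 2, 0 and 3 fragments, and at 2.06, 2.27 and 3.72 FPKM in iRFA 1 to 3, which is 36.5, 39.8 and 65.5 fragments. Gzmg was at 0.0627, 0 and 0.117 FPKM in untreated 1 to 3, or 1, 0 and 2 fragments, and at 1.24, 0.778 and 3.06 FPKM in iRFA 1 to 3, or 21.8, 13.5 and 53.3 fragments. In both genes every iRFA library stood clear of every untreated one, and iRFA 3 held the most. No fold is given for them, since untreated 2 was listed at 0 for both. Their differences in mean log2(FPKM + 1), 1.72 and 1.26, depended on the pseudocount and became 3.88 and 3.35 with 0.1 FPKM in place of 1. Leaving out untreated 3 gave 1.77 and 1.29, and against untreated 3 alone they were 1.62 and 1.18.

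Gzmd and Gzme, the nearest pair in the cluster, did not follow the others. Gzme was at 4.04, 4.81 and 0.0579 FPKM in untreated 1 to 3 and at 0.622, 0.343 and 0.883 FPKM in iRFA 1 to 3. It was thus high in untreated 1 and 2 and almost absent from untreated 3, where a single fragment was found, against 65.0 and 77.5 fragments in untreated 1 and 2. The difference in mean log2(FPKM + 1) was -0.97 (SE 0.67) over all libraries and -1.76 without untreated 3, and it changed sign to 0.60 against untreated 3 alone. Gzmd was at 2.36, 1.36 and 0.495 FPKM in untreated 1 to 3 and at 1.71, 1.60 and 2.35 FPKM in iRFA 1 to 3. Its groups overlapped, with a difference of 0.33 (SE 0.32), of 0.03 without untreated 3 and of 0.94 against untreated 3 alone.

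**Figure D2:**
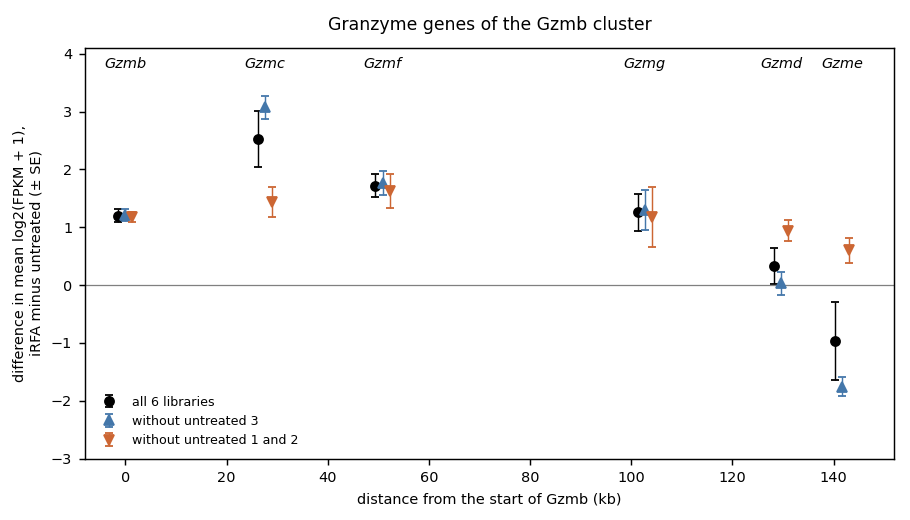
Difference in mean log2(FPKM + 1), iRFA minus untreated (vertical axis, ± SE), for the 6 granzymes of the chromosome 14 cluster that passed the filter, against the distance of each gene's start from that of Gzmb in kb (horizontal axis, the 3 symbols of a gene set side by side). Black circles use all 6 libraries, blue triangles leave out untreated 3 and orange triangles leave out untreated 1 and 2. The symbols coincide for Gzmb at 1.20, 1.20 and 1.18 and lie on both sides of 0 for Gzme.

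Granzyme K (Gzmk), like granzyme A a protease that cuts after basic residues and known from memory-like T cells, had the same layout as Gzme. It was at 1.85, 2.12 and 0.305 FPKM in untreated 1 to 3 and at 0.923, 0.462 and 1.02 FPKM in iRFA 1 to 3. Untreated 1 and 2 were highest, untreated 3 lowest, and the iRFA libraries lay between. The difference was -0.34 (SE 0.37) on the log2(FPKM + 1) scale, -0.74 without untreated 3 and 0.45 against untreated 3 alone. Gzmm, a granzyme of NK cells and other innate lymphocytes that cuts after methionine, stayed low at 0.232, 0.261 and 0.468 FPKM in untreated 1 to 3 and at 0.413, 0.400 and 0.417 FPKM in iRFA 1 to 3, with overlap. Gzmn was at 0.0575 FPKM in untreated 1 and was listed at 0 in the other 5 libraries.

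Set against untreated 3 alone, all 10 chosen genes were higher in each of the 3 iRFA libraries, including Gzmd, Gzme, Gzmk and Nkg7, whose groups overlapped when all libraries were used. By the same measure, 4002 of the 15560 genes tested (25.7%) had all 3 iRFA libraries above untreated 3 and 4443 (28.6%) had all 3 below it, and nothing is read from the difference. It rests on a single untreated library, whose spread is taken to equal that of the iRFA group.

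The make-up of the granzyme RNA also differed among the libraries. Gzmc made up 14.7%, 17.8% and 50.7% of the summed granzyme FPKM in untreated 1 to 3 and 52.1%, 59.3% and 41.5% in iRFA 1 to 3, so untreated 3 fell inside the iRFA range. Gzme made up 19.2%, 20.2% and 0.218% in untreated 1 to 3 and 0.807%, 0.445% and 1.23% in iRFA 1 to 3, again with untreated 3 away from untreated 1 and 2. The share of Gzmb was 31.4%, 35.0% and 28.6% in untreated 1 to 3 and 24.3%, 22.6% and 26.9% in iRFA 1 to 3, lower in every iRFA library although its level was higher. Untreated 3 thus had an untreated-like granzyme total with a make-up more like that of the iRFA libraries.

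**Figure D3:**
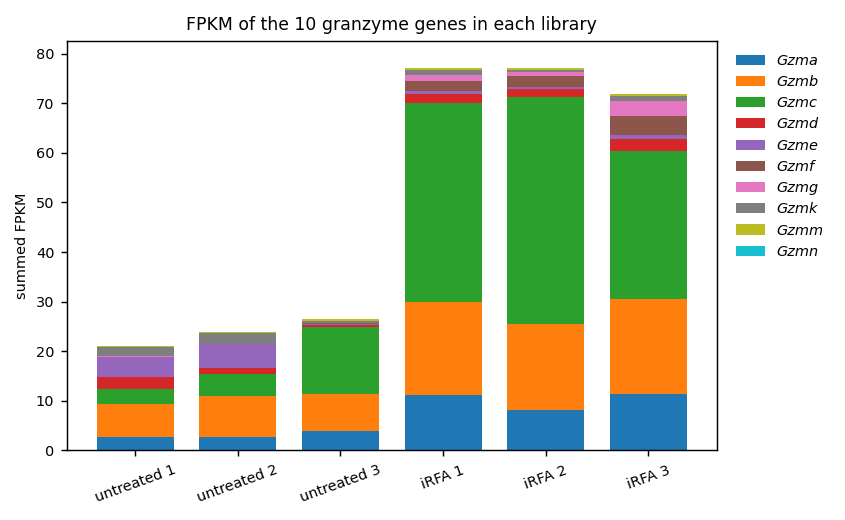
Summed FPKM of the 10 granzyme genes (vertical axis, linear from 0) in each library (horizontal axis), divided into the share of each gene by colour. The 3 untreated bars reach 21.1 to 26.5 and the 3 iRFA bars 71.9 to 77.2, and Gzmc is the largest segment in untreated 3 and in every iRFA library.

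Across the 6 libraries the 10 genes fell into different patterns. Of their 45 pairs, 8 had a Pearson correlation of log2(FPKM + 1) above 0.9. Gzma and Gzmb correlated at 0.97, Gzmf and Gzmg at 0.95, and Gzme and Gzmk at 0.97, while Gzmc and Gzme correlated at -0.81. These values are over 6 points that share the same 2 groups and the same odd library, and are given as a description. Among 13669 candidate genes averaging 1 FPKM or more, those most like Gzmb were Psmd13 (0.997), Slc10a3 (0.987) and Prpf38a (0.985), and those most like Gzma were Akr1a1 (0.996), Prdx5 (0.994) and Mef2a (0.993). Gzmc was closest to Slc11a2 (0.999), Bub3 (0.997) and Gtf3c4 (0.996), and Prf1 to Gbp3 (0.988), Blvrb (0.984) and Irak2 (0.984).

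The nearest genes of the other members were found in the same way. Gzme was most like Depdc7 (1.000), Gng12 (0.999) and the fibroblast collagen Col12a1 (0.999), and Gzmk was most like the muscle myosin Myh2 (0.997), Ccl8 (0.996) and Rarres2 (0.995). These 6 genes had the highest levels in untreated 1 and 2, the libraries with high tissue genes. Gzmg was most like Fbxw9 (0.994), Il2rg (0.990), the receptor chain shared by several lymphocyte cytokines, and Casp12 (0.990), and Gzmf was most like Gm21092 (0.999), Zmat5 (0.987) and Gm5555 (0.986). Gzmd was closest to Erp44 (0.986), Zfp87 (0.980) and Emc2 (0.975), and Nkg7 to Paip2 (0.986), B3galnt1 (0.984) and Ms4a4b (0.981), the last a gene of T cells.

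Genes that define the cells able to make granzymes were measured in the same libraries. The 11 T cell genes (Cd3d, Cd3e, Cd3g, Cd247, Cd2, Cd5, Cd28, Lck, Cd4, Cd8a and Cd8b1) were all above 0 in every library and summed to 17.6 to 38.7 FPKM in the untreated and 19.0 to 30.9 FPKM in the iRFA libraries. Cd8a, the coreceptor of cytotoxic T cells, was at 5.88, 5.80 and 2.55 FPKM in untreated 1 to 3 and at 3.78, 3.27 and 5.32 FPKM in iRFA 1 to 3. None of the 11 was separated between the groups, and untreated 3 had the lowest sum. With all libraries limma called 0 of the 11, and 0 had an unadjusted p under 0.05. Without untreated 3 it called 4 lower (Cd3g, Cd4, Cd5 and Cd8b1, with adjusted p from 0.00335 to 0.0189) and 0 higher, against 30.3% and 33.9% of all genes, while against untreated 3 alone all 11 differences were positive. Cd3e, a chain of the T cell receptor complex, ranged from 1.13 to 2.21 FPKM in the untreated and from 0.857 to 1.63 FPKM in the iRFA libraries, and the helper coreceptor Cd4 from 1.44 to 5.498 and from 1.24 to 2.47 FPKM. The 5 regulatory T cell genes summed to 7.0 to 12.3 FPKM and to 7.7 to 10.7 FPKM, with Foxp3, their defining factor, at 0.658 to 1.17 and 0.332 to 1.24 FPKM.

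The 8 NK genes (Ncr1, Klrb1c, Klrd1, Klrk1, Klrc1, Klre1, Klri2 and Cd244a) were all above 0 in every library and summed to 11.3 to 12.3 FPKM in the untreated and 14.4 to 21.1 FPKM in the iRFA libraries, and 3 of the 8 were higher without overlap, against 11.4% of all genes. The activating receptor Ncr1 was at 1.04, 0.822 and 1.59 FPKM in untreated 1 to 3 and at 1.87, 1.83 and 2.84 FPKM in iRFA 1 to 3, and Klrb1c at 0.750, 0.894 and 1.44 against 1.64, 1.64 and 3.08 FPKM. Both were highest in iRFA 3, and untreated 3 was the highest of the untreated. The limma test across all genes called 0 of the 8 (3 had an unadjusted p under 0.05), and without untreated 3 it called 4 higher and 0 lower, against 33.9% and 30.3% of all genes. The part of NK cell number in the granzyme levels was not tested.

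Mast cells and myeloid cells, which can also hold granule proteases, differed between the libraries too. The 8 mast cell genes summed to 161, 154 and 6.8 FPKM in untreated 1 to 3 and to 31.0, 28.7 and 35.4 FPKM in iRFA 1 to 3, with the mast cell carboxypeptidase Cpa3 at 21.6, 22.8 and 0.620 against 5.10, 3.90 and 5.74 FPKM. Like Gzme and Gzmk, Cpa3 was highest in untreated 1 and 2 and lowest in untreated 3. The 8 macrophage genes summed to 1383, 1374 and 2783 FPKM in untreated 1 to 3. In iRFA 1 to 3 the sums were 3413, 3066 and 3441 FPKM. All 8 were higher without overlap, against 11.4% of all genes. With all libraries limma called 0 of the 8, and 8 had an unadjusted p under 0.05. Without untreated 3 it called 8 higher and 0 lower, against 33.9% and 30.3% of all genes. Their median difference was 0.94 without untreated 3 and 0.27 against untreated 3 alone. The 6 general leukocyte genes summed to 175 to 233 against 253 to 304 FPKM, with Ptprc, the leukocyte common antigen, at 5.98 to 8.27 against 8.98 to 9.37 FPKM. The 5 genes of plasmacytoid dendritic cells summed to 128 to 246 against 247 to 268 FPKM, nearly all of it from Bst2, which other cells also express, while the 5 genes of epithelium, muscle, stroma and mesothelium summed to 1996, 2430 and 81.6 FPKM in untreated 1 to 3 and to 112, 88.8 and 181 FPKM in iRFA 1 to 3. The part of these cells in the granzyme levels was not tested.

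Dividing by these genes gave the level of a granule gene per unit of a lymphocyte or leukocyte gene. Gzmb per Cd8a was 1.13, 1.44 and 2.97 in untreated 1 to 3 and 4.97, 5.32 and 3.63 in iRFA 1 to 3, without overlap, and Gzmb per Cd3e was also separated, at 4.71 ± 1.74 against 16.2 ± 4.23 (SD, n = 3). Gzmb per Ptprc was 1.02 ± 0.0840 against 2.01 ± 0.147, again separated. Gzmb per Ncr1 was not, with 6.35, 10.2 and 4.77 in untreated 1 to 3 and 10.01, 9.52 and 6.81 in iRFA 1 to 3. The outcome turned on the marker used. Over all 8 NK genes, ratios added after those to Ncr1 had been seen, Gzmb was higher without overlap per Klrd1, Klrk1, Klrc1, Klri2 and Cd244a and overlapped per Ncr1, Klrb1c and Klre1. Gzmb per Klrk1 was 4.56, 5.90 and 7.08 in untreated 1 to 3 and 12.6, 14.7 and 9.57 in iRFA 1 to 3. Over the 11 T cell genes, Gzmb was higher without overlap for 10.

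Perforin relative to Cd8a was 0.644, 0.409 and 0.993 in untreated 1 to 3 and 1.28, 1.24 and 1.08 in iRFA 1 to 3, a narrow separation. Relative to Ncr1 it was 2.70 ± 1.03 against 2.27 ± 0.275, and relative to Ptprc 0.412 ± 0.193 against 0.532 ± 0.105, and in both the groups overlapped. Among Cd3e, Cd8a, Ncr1 and Ptprc, Nkg7 was separated only per Cd3e, at 7.49 ± 0.872 against 10.8 ± 0.647, and overlapped per the others. Gzma and Gzmc were higher without overlap relative to each of the 4 genes. Gzma per Ncr1 was 2.52, 3.29 and 2.42 in untreated 1 to 3 and 5.96, 4.44 and 3.99 in iRFA 1 to 3, and Gzmc per Ncr1 was 2.97, 5.17 and 8.45 against 21.4, 25.1 and 10.5. Over the 8 NK genes, Gzma was higher without overlap for 8, Gzmc for 7, Prf1 for 1 and Nkg7 for 0, and Nkg7 was lower without overlap for 3. Over the 11 T cell genes, Gzma was higher without overlap for 11, Gzmc for 10, Prf1 for 9 and Nkg7 for 3. As ratios of the members these too are descriptions, with no test.

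**Figure D4:**
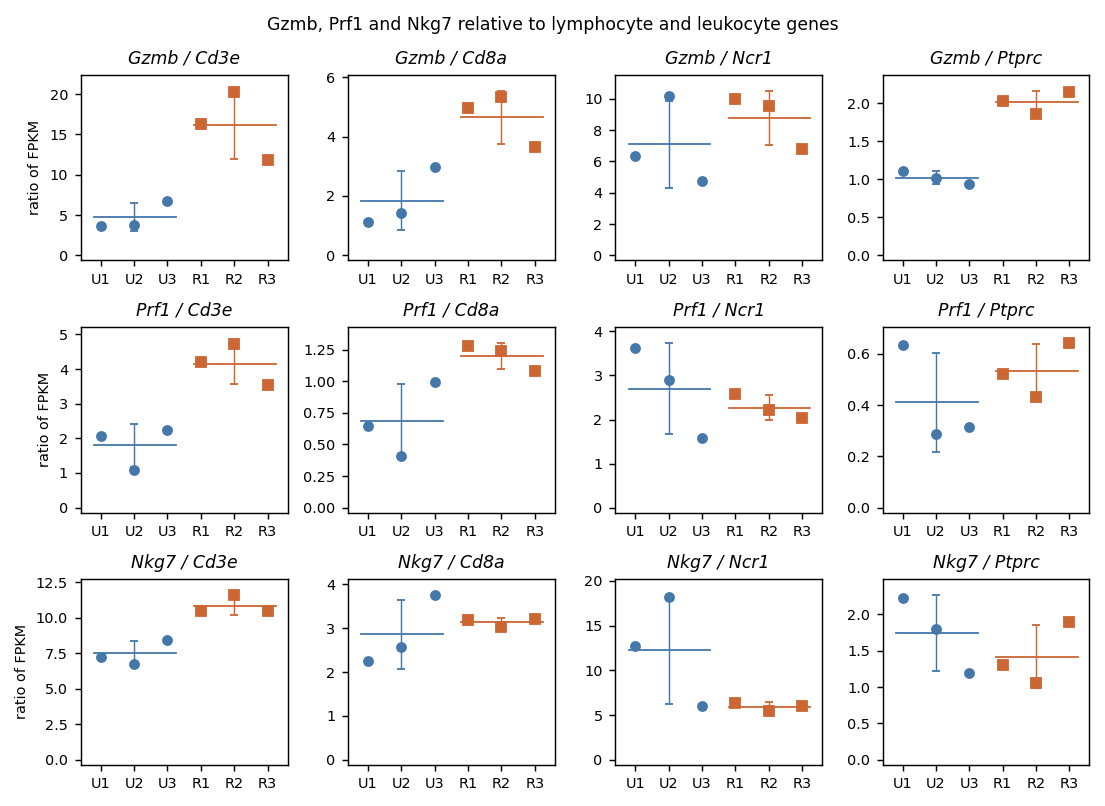
Ratio of the FPKM of Gzmb, Prf1 and Nkg7 (rows) to that of Cd3e, Cd8a, Ncr1 and Ptprc (columns) in each untreated (U, blue circles) and iRFA (R, orange squares) library, on linear axes, with the group mean as a line and the SD as a bar. Squares and circles separate for Gzmb against Cd3e, Cd8a and Ptprc and mix for every gene against Ncr1.

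Partner genes of granzymes and perforin, 64 genes grouped by known role, were tested in the fit over all genes, and 57 of them passed the filter. With all 6 libraries, limma with Benjamini-Hochberg adjustment called 0 genes higher and 0 lower, both among the partners and among all 15560 genes tested (0% in each direction). At an unadjusted p under 0.05 it held 11 partners higher and 1 lower, and 1236 and 1050 of all genes. By the simpler measure of groups that do not overlap, 13 of the 57 were higher and 1 was lower, or 22.8% and 1.75%, against the 11.4% and 10.5% of all genes given above. Without untreated 3 the test called 23 partners higher and 16 lower, against 33.9% and 30.3% of all genes, and against untreated 3 alone it called 0. Each call named below is from the comparison without untreated 3 and was lost when all libraries were used. Its p-value only describes these libraries, since untreated 3 was left out for its likeness to the iRFA group.

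Of 10 genes for storing and maturing granzymes, 4 were higher without overlap and 0 lower, against 11.4% and 10.5% of all genes. Without untreated 3 the test called 5 higher and 2 lower, against 33.9% and 30.3% of all genes. Cathepsin C (Ctsc), which removes the dipeptide that keeps granzymes inactive, was at 55.3, 55.9 and 69.4 FPKM in untreated 1 to 3 and at 81.2, 75.4 and 79.3 FPKM in iRFA 1 to 3. The groups were apart, with a difference in mean log2(FPKM + 1) of 0.39 (SE 0.12, adjusted p = 0.250 by limma) and, without untreated 3, of 0.49 (adjusted p = 6.76e-04), and of 0.18 against untreated 3 alone. Cathepsin L (Ctsl), a lysosomal protease, differed by 0.31, 0.35 (adjusted p = 0.00438 by limma) and 0.22 in the same 3 comparisons. The lymphocyte cathepsin Ctsw differed by 0.31, 0.32 and 0.29 and the sorting receptor M6pr by 0.13, 0.13 and 0.13, both without a call. The 2 most abundant genes of the list, calreticulin (Calr, 393 ± 80.4 against 475 ± 8.38 FPKM) and the granule membrane protein Lamp1 (180 ± 42.4 against 232 ± 16.0 FPKM), overlapped between the groups. Calr differed by 0.29, 0.45 (adjusted p = 7.55e-04 by limma) and -0.03, and Lamp1 by 0.39, 0.57 (adjusted p = 0.00112 by limma) and 0.02, so neither kept its difference against untreated 3.

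Of 8 genes for granule release, 1 was higher without overlap and 0 were lower, against 11.4% and 10.5% of all genes. The 1 was Stx11, a syntaxin needed for granule fusion. It was at 6.76, 6.01 and 10.8 FPKM in untreated 1 to 3 and at 12.5, 12.3 and 14.0 FPKM in iRFA 1 to 3. Its difference was 0.69 (SE 0.21), 0.92 without untreated 3 (adjusted p = 3.43e-04 by limma) and 0.24 against untreated 3 alone. Without untreated 3, 1 of the 8 was called higher and 4 lower, against 33.9% and 30.3% of all genes. Against untreated 3 alone all 8 differences were positive, with a median of 0.13. The 4 called lower were Unc13d, Stxbp2, Vamp8 and Lyst. Without untreated 3, Unc13d differed by -1.34 (adjusted p = 3.90e-04), Stxbp2 by -1.31 (8.91e-05) and Lyst by -0.33 (0.0400, all by limma). Against untreated 3 alone these 3 differed by 0.30, 0.22 and 0.04. Vamp8, a vesicle fusion protein of many secretory cells, was at 61.9, 59.2 and 26.0 FPKM in untreated 1 to 3 and at 28.0, 26.1 and 28.3 FPKM in iRFA 1 to 3. Its difference of -1.11 without untreated 3 (adjusted p = 5.59e-05 by limma) became 0.08 against untreated 3 alone. The adaptor subunit Ap3b1 differed by 0.05, 0.00 and 0.15 in the 3 comparisons, with no call.

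The 2 granzyme inhibitors followed untreated 1 and 2. Serpinb9, which blocks granzyme B, was at 32.7, 28.3 and 11.5 FPKM in untreated 1 to 3 and at 13.5, 11.9 and 15.3 FPKM in iRFA 1 to 3. Serpinb6b, which inhibits granzyme A in the mouse, was at 46.5, 39.4 and 1.61 against 2.20, 1.64 and 3.22 FPKM. Both overlapped between the groups, with untreated 3 below the iRFA libraries. Without untreated 3 both were called lower, by -1.12 (adjusted p = 6.27e-04) and -3.73 (adjusted p = 5.95e-05, both by limma), against 30.3% of all genes called lower. Against untreated 3 alone the differences were 0.22 and 0.34.

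Of 12 substrates that granzymes cut in the target cell, 2 were higher without overlap, Bid and Casp8, and 1 was lower, Dffa. The shares of all genes were 11.4% and 10.5%. Without untreated 3 the test called 8 higher and 3 lower, against 33.9% and 30.3% of all genes. Bid, the death agonist cut by granzyme B, was at 7.56, 7.53 and 12.2 FPKM in untreated 1 to 3 and at 14.3, 14.2 and 12.3 FPKM in iRFA 1 to 3. Untreated 3 lay just below the lowest iRFA library, and the difference was 0.56 (SE 0.20) with all libraries, 0.77 without untreated 3 (adjusted p = 5.79e-04 by limma) and 0.15 against untreated 3 alone. Casp8, the initiator caspase of death receptors, differed by 0.64, 0.91 and 0.09 in the same 3 comparisons, and Dffa, the inhibitor of the DNA-cutting caspase-activated nuclease, by -0.17, -0.24 and -0.04. The 2 most abundant, Set and Hmgb2, both nuclear proteins of the complex that granzyme A attacks, overlapped between the groups. Set differed by 0.57 with all libraries, by 0.92 without untreated 3 (adjusted p = 3.82e-04 by limma) and by -0.14 against untreated 3 alone. Hmgb2 differed by 1.15, 1.75 (adjusted p = 7.42e-06 by limma) and -0.04, so neither gene kept its difference against untreated 3.

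Lymphocytes are induced to make granzymes through cytokine receptors, and 11 genes of these cytokines and receptors were tested. Of these, 5 were higher without overlap (Il2ra, Il2rb, Il2rg, Il12rb1 and Il21r) and 0 lower, against 11.4% and 10.5% of all genes. Without untreated 3 the test called 6 of the 11 higher and 3 lower, against 33.9% and 30.3% of all genes. The 3 called lower were Il18r1 (-2.64, adjusted p = 5.82e-05), Il18 (-1.95, 5.32e-04) and Il12b (-0.70, 0.0234, all by limma). All 3 overlapped between the groups with all libraries, and against untreated 3 alone they differed by 0.22, 0.07 and 0.00. The 3 chains of the interleukin 2 receptor stayed close among the untreated libraries, untreated 3 among them. Il2ra was at 0.855, 0.959 and 0.810 FPKM in untreated 1 to 3 and at 1.37, 1.24 and 1.59 FPKM in iRFA 1 to 3, with a difference of 0.35 over all libraries, 0.33 without untreated 3 (adjusted p = 0.0312 by limma) and 0.40 against untreated 3 alone. Il2rg was at 26.6, 25.7 and 25.5 FPKM in untreated 1 to 3 and at 32.4, 29.8 and 36.7 FPKM in iRFA 1 to 3, with differences of 0.33, 0.32 (adjusted p = 0.0295 by limma) and 0.35. Il2rb, which carries the signal of interleukins 2 and 15, differed by 0.28, 0.23 (no call) and 0.39. Il12rb1 behaved otherwise: it was at 2.05, 1.97 and 9.14 FPKM in untreated 1 to 3 and at 9.47, 11.9 and 11.8 FPKM in iRFA 1 to 3, so that untreated 3 lay just below the iRFA libraries. Its difference was 1.41, 1.99 (adjusted p = 6.17e-05 by limma) and 0.24 in the 3 comparisons. Il21r differed by 0.42, 0.57 (adjusted p = 0.00109 by limma) and 0.14. Il15 and Il15ra were also called higher without untreated 3, but overlapped between the groups with all libraries. Il15 differed by 0.63, 0.91 (adjusted p = 0.00456 by limma) and 0.07, and Il15ra by 0.56, 0.92 (adjusted p = 0.00514 by limma) and -0.17.

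Il2, Il12a and Il21 were listed at 0 in at least 3 libraries each and were not tested. The receptor chain Il12rb2, also below the filter, was at 0.154, 0.210 and 0.245 FPKM in untreated 1 to 3 and at 0.532, 0.249 and 0.519 FPKM in iRFA 1 to 3, apart by a narrow margin. Among the transcription factors of effector lymphocytes, 1 of 10 was higher without overlap, against 11.4% of all genes. This was Runx3, a factor of cytotoxic T cells, at 4.59 ± 0.449 against 5.57 ± 0.178 FPKM (SD, n = 3), with differences of 0.24 over all libraries, 0.27 without untreated 3 (adjusted p = 0.0329 by limma) and 0.16 against untreated 3 alone. Without untreated 3 the test called 2 of the 10 higher, Runx3 and Eomes, and 1 lower, Nfil3, against 33.9% and 30.3% of all genes. Eomes overlapped between the groups and differed by 0.53, 0.77 (adjusted p = 0.00791 by limma) and 0.05 in the same comparisons. The most abundant factors, Id2 and Nfil3, overlapped between the groups. Id2 differed by -0.01, -0.20 (no call) and 0.38 in the 3 comparisons, and Nfil3 by -0.59, -0.83 (adjusted p = 3.06e-04 by limma) and -0.10.

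Of the 4 death ligands and cytokines tested, 0 were separated in either direction, against 11.4% higher and 10.5% lower of all genes. Tnfsf10 (TRAIL) was at 4.97, 4.78 and 1.90 FPKM in untreated 1 to 3 and at 2.35, 1.98 and 3.62 FPKM in iRFA 1 to 3, and Tnf at 1.80, 1.74 and 2.62 against 2.21, 3.28 and 2.75 FPKM. Tnfsf10 differed by -0.37, -0.71 (adjusted p = 0.0211 by limma) and 0.31 in the 3 comparisons, and Tnf by 0.30, 0.43 (adjusted p = 0.0355 by limma) and 0.04. Lta (lymphotoxin alpha), too low to be tested, was at 0.268, 0.288 and 0.182 FPKM in untreated 1 to 3 and at 0.412, 0.369 and 0.453 FPKM in iRFA 1 to 3, without overlap.

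**Figure D5:**
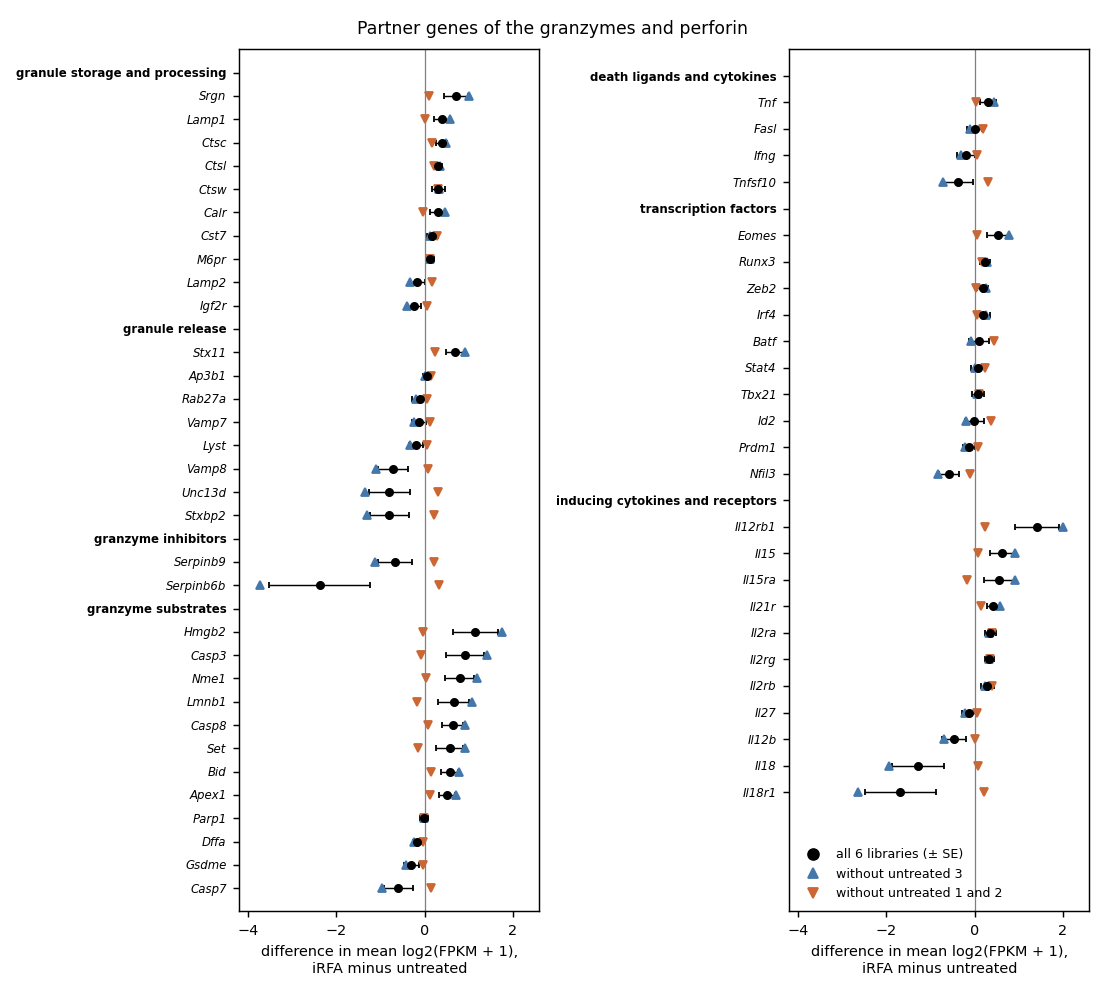
Difference in mean log2(FPKM + 1), iRFA minus untreated (horizontal axis), of the 57 partner genes that passed the filter, grouped by role (rows). Black circles with SE bars use all 6 libraries, blue triangles leave out untreated 3 and orange triangles leave out untreated 1 and 2. The 3 symbols lie together for Il2ra (0.35, 0.33 and 0.40) and Il2rg (0.33, 0.32 and 0.35) and far apart for Serpinb6b (-2.38, -3.73 and 0.34).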

How the data were processed

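The 6 bulk RNA-seq libraries were grouped by the samples' labels into 3 untreated and 3 iRFA tumors. The authors deposited 1 file a library with FPKM values per Ensembl gene; HISAT2, StringTie, FastQC and the build GRCm38 are named in the submitters' processing notes, with no versions. Of 32110 gene IDs, 32060 were paired with a symbol of GENCODE M21. The members and the lists of partner and marker genes were chosen with earlier results of these data known, and the members were not tested. Named were the members with Gzmm and Gzmn, the 2 most abundant genes of each partner list, any partner that passed the test or whose groups did not overlap with all 6 libraries, the defining marker genes, and for each member the 3 genes most like it. All genes called without untreated 3 among the cytokines and receptors, the granule release genes and the transcription factors were named as well.

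The 15560 genes averaging 0.5 FPKM or more were tested on log2(FPKM + 1) with limma 3.58.1 (R 4.3.3; eBayes with trend, two-sided, Benjamini-Hochberg over all of them, threshold 0.05), after a test of the script on simulated data. SEs are limma's. Differences on this scale understate the change of low genes. Alternatives were another pseudocount, filter, scaling or prior, a replicate block, and libraries left out. Fragments were computed as FPKM times transcript length divided by the step of 1 fragment, for genes with 1 annotated transcript, and cover counting error only. Proteins for identity were the longest reading frames of GENCODE M21 transcripts, aligned with Biopython 1.88.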

Additional observations from a re-analysis of the deposited data

How the results depend on the processing

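With 1 library left out at a time, the number of genes called ranged from 0 to 5269 higher and from 0 to 4711 lower over all genes, and from 0 to 23 higher and 0 to 16 lower among the partner genes. Every call came from leaving out untreated 3, and dropping each of the other 5 in turn gave 0. Without untreated 1 and 2 together the test called 1 gene higher over all genes and 0 lower, and 0 partner genes. The other pseudocount, filters, scalings, the fit without trend and the replicate block gave 0 calls in each direction. Samples share only a number: the deviations of same-numbered libraries correlated at -0.09, -0.11 and -0.23, no library correlated best with its own number, and with the replicate block 646 genes were higher and 510 lower at an unadjusted p under 0.05, against 1236 and 1050 without it.

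Of the 10 members, 7 kept the sign of their difference in all alternatives. Gzme and Gzmk became positive (0.60 and 0.45) without untreated 1 and 2, and Nkg7 became negative in 3 alternatives, down to -0.17. Of 139 values, 11 moved by more than the SD within groups. The median difference of all genes was 0.02, and -0.05 with libraries rescaled to equal sums and 0.09 with quantile normalization. These scalings left the sign of every member but Nkg7 as it was. With 3 libraries a group, 1 of which resembles the other group, the comparison of ablated with untreated tumors rests on few samples, and the levels of Gzmf and Gzmg in the untreated tumors rest on 0 to 3 fragments a library.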
